A study of Mus musculus with 5 samples.

Results

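The guanylate-binding protein (GBP) genes were followed in single T cells of a mouse coculture experiment. The members were taken by symbol, namely Gbp2, Gbp3, Gbp4, Gbp5, Gbp6, Gbp7, Gbp8 and Gbp9, and all 8 were found among the 32285 genes measured. GBPs are large GTPases that interferons induce, interferon gamma most strongly. They assemble on the membranes of intracellular parasites and bacteria, help to break them open, and promote the assembly of inflammasomes, the complexes that activate inflammatory caspases. Interferon gamma binds the receptor encoded by Ifngr1 and Ifngr2, the kinases Jak1 and Jak2 pass the signal on, and the factor Irf1 is among those that bind the promoters of GBP genes. T cells express the receptor, so they can respond to interferon gamma as well as secrete it.

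The study profiled naive OT-II T cells, CD4 T cells whose transgenic receptor recognises a peptide of ovalbumin (OVA) on MHC class II, with the 10x Genomics 5′ single-cell kit. They were isolated from a mouse spleen by negative selection, which leaves the wanted cells unlabelled. The 5 samples, 1 per group, were OT-II cells alone without treatment, OT-II cells kept overnight with antigen-presenting cancer-associated fibroblasts (apCAFs) of the pancreatic tumor clone sKPC with DMSO or with OVA, and the same with apCAFs of the clone rKPC with DMSO or with OVA. The apCAFs were sorted from dissociated tumors, and the markers of the sort are not given in the sources used here.

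No comparison between these groups could be made. The counts lie in 2 matrices, G and H, whose barcodes carry 3 and 2 library suffixes, whereas the labels place 2 samples in G and 3 in H, and no source used here ties a suffix to a sample. The numbers would match if the matrix names were exchanged, which was not assumed. The suffixes are therefore called libraries Ga, Gb, Gc, Ha and Hb, each is given as a single library with no group, and no test between libraries was run. All intervals below are exact and at 95%, and cover counting error only.

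Of 25623 barcodes, 22874 were Cd3+, meaning at least 1 UMI (a counted RNA molecule) of Cd3d, Cd3e or Cd3g, at least 500 UMIs in all and at most 10% mitochondrial UMIs. There were 5236 in Ga and 6419 in Gc, against 3081 in Gb, 4200 in Ha and 3938 in Hb, with medians of 7928 to 8768 UMIs. A Cd4 UMI was seen in 59.1 to 71.8% of them and a UMI of the gamma-delta receptor gene Trdc in 18.4 to 23.2%. All 6 T cell markers were detected in every library, with a summed level of 5355 CPM (UMIs of a gene in each 1000000 UMIs of the library's cells) in Gc and 8267 to 9222 CPM in the others. Of the barcodes that passed the same limits of depth and mitochondrial UMIs but had no Cd3 UMI, 6 were counted as fibroblast barcodes. These carried 3 or more UMIs of fibroblast markers and did not reach the limits for B cell, myeloid or erythroid markers. Barcodes that reached several of these limits were not counted. The apCAFs themselves were not analysed here. Fibroblast marker RNA in Cd3+ cells stood at 56.9 CPM in Gb and at 0.165 to 3.49 CPM in the other libraries. Any 2 libraries shared 2 to 14 barcode sequences.

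Cells were also divided by the factor genes Irf4 and Nr4a1, which T cells switch on within hours of receptor stimulation. Cells with at least 1 UMI of either made up 25.2% of Cd3+ cells in Ga (1322 cells) and 22.5% in Gc (1446 cells). They were 2.21% in Gb (68 cells), 2.05% in Ha (86 cells) and 1.3% in Hb (51 cells).

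The members lie in 2 clusters (GRCm38, GENCODE M21). On chromosome 3, Gbp5, Gbp7, Gbp3 and Gbp2 follow each other on the forward strand between 142493978 and 142638008. On chromosome 5, Gbp8, Gbp9, Gbp4 and Gbp6 lie on the reverse strand between 105014150 and 105293698. Reads of a 5′ kit come from the start of a transcript, and there annotated transcripts of Gbp4, Gbp8 and Gbp9 begin in overlapping first exons from 105139480. The division of UMIs among these 3 genes is therefore uncertain. Gbp6 is uncertain too: 69.3% of the 60-base stretches of its transcripts also occur in other transcripts of the family, against 0% for Gbp5, 1.55% for Gbp2, 1.78% for Gbp7 and 2.96% for Gbp3. On these grounds Gbp2, Gbp3, Gbp5 and Gbp7 are the members whose counts are least exposed to such sharing.

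These same 4 genes have entries in the promoter table (RefSeq, GRCm38.p6), and their sequences before the RefSeq start are shown because in the cells described below 3 of them were low where Gbp5 was not. Capitals mark 2 motifs, searched on both strands: the interferon-stimulated response element (ISRE, GAAANNGAAA), the kind of site that Irf1 binds, and the gamma-activated site (GAS, TTCNNNGAA), a second kind of site in promoters that respond to interferon gamma. Each stretch is on the forward strand and starts 200 bases before the RefSeq start. Those of Gbp2 and Gbp5 end where GENCODE places more than 30 bases of exon.
Gbp2, chr3:142620463-142620631: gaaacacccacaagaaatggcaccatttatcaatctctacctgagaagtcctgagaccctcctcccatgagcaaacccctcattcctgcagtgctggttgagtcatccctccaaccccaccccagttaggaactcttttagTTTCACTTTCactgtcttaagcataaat
Gbp3, chr3:142559844-142560043: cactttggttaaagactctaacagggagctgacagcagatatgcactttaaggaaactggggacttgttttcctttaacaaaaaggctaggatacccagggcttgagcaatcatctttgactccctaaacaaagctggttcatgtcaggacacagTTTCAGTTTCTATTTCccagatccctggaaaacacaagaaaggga
Gbp5, chr3:142496734-142496929: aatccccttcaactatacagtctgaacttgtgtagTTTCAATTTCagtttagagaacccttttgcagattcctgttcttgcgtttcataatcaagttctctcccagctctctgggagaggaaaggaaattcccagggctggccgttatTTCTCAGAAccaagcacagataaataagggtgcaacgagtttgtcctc
Gbp7, chr3:142530136-142530335: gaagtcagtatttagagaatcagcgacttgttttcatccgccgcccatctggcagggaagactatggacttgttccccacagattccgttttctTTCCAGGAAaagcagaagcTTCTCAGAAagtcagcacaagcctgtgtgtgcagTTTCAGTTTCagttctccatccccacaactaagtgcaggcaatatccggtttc
An ISRE match occurred once in Gbp2, Gbp5 and Gbp7 and as 2 overlapping matches in Gbp3, and 2.27% of all 32851 promoter windows of 200 bases hold one. A second RefSeq start of Gbp3 had none in its window. The ISRE nearest to the RefSeq start began 59 bases before it in Gbp2, 39 in Gbp3, 53 in Gbp7 and 165 in Gbp5. These distances depend on the annotation. GENCODE starts a first exon within the window at 142620602 in Gbp2, at 142560026 in Gbp3 and at 142496900 in Gbp5. By GENCODE the Gbp2 match lies within the first exon and not before it. GAS matches occurred once in Gbp5 and as 2 matches in Gbp7, and 5.49% of all windows hold one. Of the 4, Gbp5 alone had a match to a kappaB motif (GGGANNNNCC), beginning 77 bases before the start, which 14.9% of all windows hold. Gbp2 alone held an AP-1 motif (TGANTCA), 102 bases before the start, which 5.48% of all windows hold. These are letter matches, and no binding was measured.

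Every GBP member was higher in libraries Ga and Gc than in Gb, Ha and Hb. The summed level of the 8 was 679 CPM in Ga (672 to 686) and 814 in Gc (807 to 821), against 260.3 in Hb (255 to 266), 244 in Gb (238 to 250.4) and 232 in Ha (227 to 237). The span, the ratio of the highest to the lowest library, was 3.50-fold, or 1.81 on the log2 scale (1.78 to 1.84). All 8 members spanned at least 2-fold, which 13.8% of the 14758 genes with at least 100 UMIs did. Ga and Gc were the highest pair for all 8, against 26.3% of all genes, and both conditions together held for 4.17% of all genes. The median log2 span was 1.74 for the members and 0.385 for all genes tested.

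Gbp5 and Gbp2, which promote inflammasome activation and coat pathogen vacuoles, had the widest spans. Gbp5 stood at 48.5 CPM in Ga and 70.4 in Gc, against 8.51 in Gb, 9.83 in Ha and 9.31 in Hb. Its 3 low libraries could not be told apart by their intervals, and its span was 8.25-fold. Gbp2 stood at 139.9 CPM in Ga and 180.1 in Gc, against 31.0 in Gb, 27.6 in Ha and 33.3 in Hb, a span of 6.53-fold. For both genes Gc lay above Ga beyond counting error, by 1.45-fold for Gbp5 and 1.29-fold for Gbp2.

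Gbp3 and Gbp7 lie between Gbp5 and Gbp2 on chromosome 3. Gbp3 was at 25.9 CPM in Ga and 32.4 in Gc, against 10.5 in Gb, 11.8 in Ha and 12.0 in Hb, a span of 3.08-fold. Gbp7 was at 94.1 CPM in Ga and 111 in Gc, against 44.4 in Gb, 40.1 in Ha and 45.2 in Hb, a span of 2.76-fold. In both genes the 3 low libraries lay within 1.13-fold of their neighbour in the order.

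The chromosome 5 members held the same split into a high pair and a low trio. Gbp6 was at 54.8 CPM in Ga and 53.7 in Gc, against 16.2 in Gb, 13.8 in Ha and 16.9 in Hb, a span of 3.97-fold. It was the exception in order, with Ga and Gc not separated by their counts (1.02-fold). Gbp4 was at 177 CPM in Ga and 208 in Gc, against 63.1 in Gb, 57.5 in Ha and 65.8 in Hb, a span of 3.61-fold. Gbp8 was at 106 CPM in Ga and 123 in Gc, against 52.9 in Gb, 52.1 in Ha and 57.9 in Hb, a span of 2.36-fold. The narrowest span belonged to Gbp9, with 33.1 CPM in Ga and 35.7 in Gc, against 17.8 in Gb, 19.6 in Ha and 19.9 in Hb, or 2.0-fold. Over the 8 members and their sum, 12 of the 36 pairs of neighbours in the order had an interval that included no difference, most of them among Gb, Ha and Hb.

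**Figure D1:**
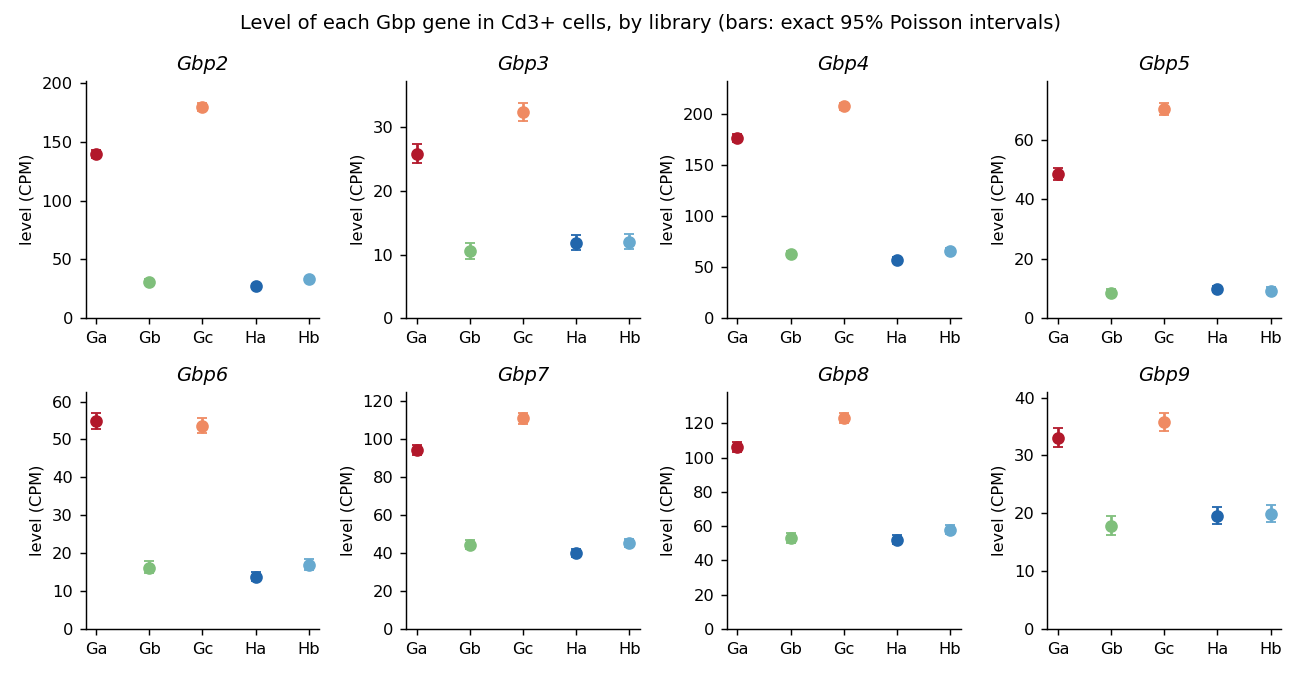
Level of each member in Cd3+ cells, in CPM on a linear axis from 0, for the 5 libraries; points are single libraries and bars exact 95% Poisson intervals. Ga and Gc lie above Gb, Ha and Hb in all 8 panels, from 2.0-fold in Gbp9 to 8.25-fold in Gbp5 between the extreme libraries.

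Outside the rule, Gbp10 had few UMIs, with 3.89 CPM in Ga and 4.05 in Gc, against 0.35 in Gb, 0.248 in Ha and 0.236 in Hb. Since 69.9% of its 60-base stretches also occur in Gbp6 transcripts, its reads may be divided between the 2 genes. Gbp2b, the neighbour of Gbp2, was at or below 0.405 CPM in every library.

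More cells carried GBP RNA in Ga and Gc, and more members were seen per cell. With each cell thinned to 1500 UMIs, at least 1 member was seen in 44.8% of cells in Ga and 51.3% in Gc, against 27.2% in Gb, 27.3% in Ha and 27.7% in Hb. Without thinning, the share was 81.2% in Ga and 84.4% in Gc and lay between 69.1 and 72.3% in the other 3. Thinning left out 96 to 197 shallower cells per library. Barcodes without Cd3 UMIs that carried erythroid markers, which should lack GBP RNA, showed a member in 2.80% of 143 thinned barcodes pooled over the libraries (0.767 to 7.01%), and in 7.19% unthinned, at a median of 8607 UMIs. All 5 T cell shares lay above that background. Cells with 3 or more different members made up 9.25% of thinned cells in Ga and 12.0% in Gc, against 1.24% in Gb, 0.894% in Ha and 1.1% in Hb.

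The mean number of GBP UMIs per thinned cell was 1.05 in Ga and 1.304 in Gc, against 0.363 to 0.391 in the other libraries, where most cells had none. The highest thinned cell had 19 GBP UMIs in Gc and 10 in Gb.

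Within Ga and Gc, cells with Irf4 or Nr4a1 UMIs had less GBP RNA than cells without. The summed level was 466 CPM with and 770.5 without in Ga, a log2 ratio of -0.72 (-0.76 to -0.69). In Gc it was 531 with and 924 without, a log2 ratio of -0.80 (-0.83 to -0.76). The 7 members other than Gbp5 were lower by at least 1.5-fold in both libraries, while 21.9% of all genes were so in Ga, 17.8% in Gc and 13.8% in both. Spanning the libraries at least 2-fold with Ga and Gc highest, and being lower in the cells with Irf4 or Nr4a1, held for 7 of 8 members and for 0.203% of all genes. No member was higher by at least 1.5-fold in either library, as 19.8% of all genes were in Ga and 20.6% in Gc. The 1.5-fold boundary was chosen after the data had been seen.

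Gbp8 had the lowest ratio in Gc, at 68.8 CPM with and 144 without, a log2 ratio of -1.06 (-1.16 to -0.97), and stood at -0.96 in Ga. Gbp2 had the smallest difference of the 7 in Ga, with 102 CPM with and 156 without, a log2 ratio of -0.62 (-0.70 to -0.53). Its ratio in Gc was -0.80. The other 5 (Gbp3, Gbp4, Gbp6, Gbp7 and Gbp9) had log2 ratios between -0.99 and -0.70 in Ga and between -1.02 and -0.82 in Gc.

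Gbp5 was the exception, slightly higher in the cells with Irf4 or Nr4a1 UMIs. It stood at 53.1 CPM with and 46.5 without in Ga, a log2 ratio of 0.19 (0.07 to 0.32), and at 76.3 with and 68.2 without in Gc, a ratio of 0.16 (0.07 to 0.26). In Ha it was 21.2 CPM with (22 UMIs in 86 cells) and 9.50 without, and in Hb 46.2 with (25 UMIs in 51 cells) and 8.71 without. Only 11.8% of these 51 Hb cells had a Gbp5 UMI. The 24 of them with Cd4 and without Trdc or Foxp3 UMIs had 0 Gbp5 UMIs. Gb showed 7.91 with (9 UMIs in 68 cells) and 8.54 without. The higher Gbp5 level with Irf4 or Nr4a1 UMIs was not stable: in the 14 ways of processing tried, it was below that of the other cells in 4 in Ga and in 3 in Gc, whereas the other 7 members were below in all 14 in both libraries. For Gbp2 in Ga the smallest difference was a log2 ratio of -0.037. In Ga cells with Cd4 and without Trdc or Foxp3 UMIs, Gbp2 was at 140 CPM with (130 to 150) and 147 without (142 to 153), with overlapping intervals.

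**Figure D2:**
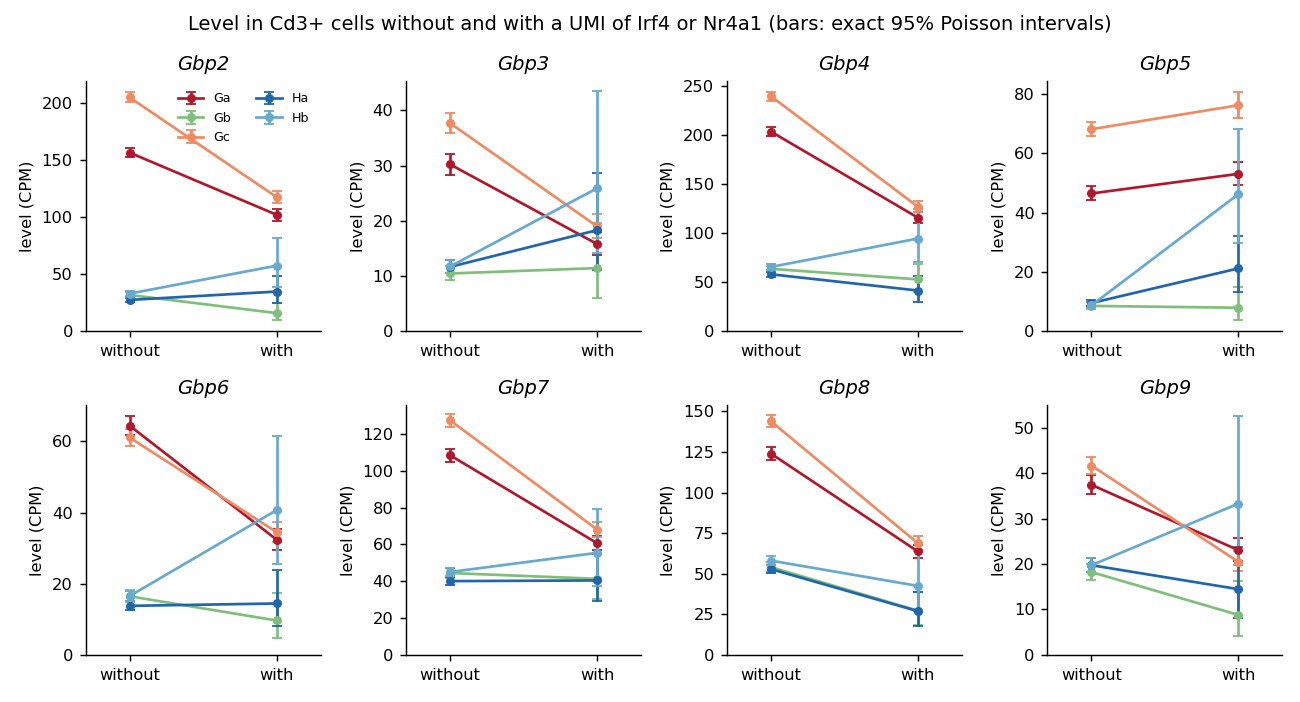
Level of each member in CPM, on a linear axis from 0, in Cd3+ cells without and with a UMI of Irf4 or Nr4a1, 1 line per library and exact 95% Poisson bars. In 7 panels Ga and Gc are lower at the right than at the left, and in that of Gbp5 slightly higher; the wide bars at the right belong to Gb, Ha and Hb, with 68, 86 and 51 cells.

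In the other 3 libraries the few cells with Irf4 or Nr4a1 UMIs gave no common direction in the main processing. The summed log2 ratio was -0.50 in Gb, -0.14 in Ha (-0.34 to 0.06) and 0.62 in Hb (0.41 to 0.81). It was above 0 in 6 of the 11 processings that left at least 20 such cells in Gb, in 7 of 12 in Ha and in all 11 in Hb. All 3 libraries were above 0 together in some settings. At 8000 to 12000 UMIs the ratio was 0.52 in Gb, 0.41 in Ha and 0.91 in Hb. With Nr4a3, Egr2 or Il2ra as the dividing genes it was 0.39, 0.50 and 0.56. In Cd4+ cells without Trdc UMIs Ha stayed below 0, at -0.05. Barcodes carrying B cell, myeloid, erythroid or fibroblast markers were 5.88% of such cells in Gb, 11.6% in Ha and 3.92% in Hb, against 0.632 to 0.843% of the cells without. They were 1.13% in Ga and 2.28% in Gc. Without these barcodes the summed log2 ratio was -0.80 in Ga, -0.76 in Gc, 0.32 in Gb, 0.19 in Ha and 0.57 in Hb. Myeloid marker RNA, of which all 8 genes were detected in Ga and Gc, stood at 243 CPM with and 88.7 without in Ga and at 227 and 103 in Gc. B cell marker RNA was also higher with such UMIs, at 15.03 and 6.13 CPM in Ga and 20.2 and 5.13 in Gc. Erythroid and gamma-delta marker RNA were lower with them. Erythroid markers, all 4 detected, were at 47.7 CPM with and 2033 without in Ga and at 800.03 and 1471 in Gc, and gamma-delta markers, all 5 detected, at 59.7 and 149 in Ga and 50.7 and 132 in Gc. The part of these markers in the GBP ratios of Ga and Gc beyond the leaving out of such barcodes was not tested. Myeloid-marker barcodes without Cd3 UMIs, pooled over the libraries, had 158 CPM of GBP RNA (143 to 176). By library, over 16 to 24 barcodes each, they had 253 CPM in Ga (211 to 302) and 175 in Gc. In Gb they had 93.6, in Ha 109 and in Hb 152. Each value was below that of the T cells of the same library.

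The level depended on how many Irf4 and Nr4a1 UMIs a cell had. In Ga the summed GBP level was 770.5 CPM at 0 UMIs, 861 at 1, 581 at 2 to 4, 341 at 5 to 9 and 251 at 10 or more. In Gc it was 924, 988, 753, 372 and 242 in the same order. Cells with a single UMI thus lay above those with none, and the levels were lower from 2 to 4 UMIs onward. At 10 or more UMIs, with 560 cells in Ga and 554 in Gc, these levels stood beside the 232 to 260.3 CPM of all Cd3+ cells in Gb, Ha and Hb.

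Gbp5 was highest in the middle of this range. In Ga it was 46.5 CPM at 0 UMIs, 69.8 at 1, 72.2 at 2 to 4, 50.1 at 5 to 9 and 39.7 at 10 or more. In Gc the values were 68.2, 106, 127, 78.8 and 43.6. Even at 10 or more UMIs Gbp5 was above the 8.51 to 9.83 CPM of all Cd3+ cells in Gb, Ha and Hb. So was Gbp2, at 56.5 CPM in Ga and 50.47 in Gc against 27.6 to 33.3 CPM. The few cells with Irf4 or Nr4a1 UMIs had 7.91 CPM of Gbp5 in Gb, 21.2 in Ha and 46.2 in Hb. For Gbp2 they had 15.8, 34.7 and 57.3 CPM, so neither gene was above its level in those Hb cells in both Ga and Gc. Gbp8 ended at 28.3 CPM in Ga and 28.5 in Gc, below the 52.1 to 57.9 CPM of all Cd3+ cells in Gb, Ha and Hb. Gbp3, Gbp7 and Gbp9 were below those libraries as well. Gbp6 stood within their range in both libraries, and Gbp4 was at 57.4 CPM in Ga and 52.0 in Gc against 57.5 to 65.8 CPM.

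Depth was greater along the same steps, with a median of 8410 UMIs at 0 and 11666 at 10 or more in Ga. Among the Ga cells without Irf4 or Nr4a1 UMIs, the summed GBP level was 874 CPM in the shallowest of 3 equal groups of cells by depth, 826 in the middle group and 678 in the deepest, and 991, 987 and 849 in Gc. Restricted to barcodes of 8000 to 12000 UMIs, the log2 ratio with over without was -0.64 in Ga and -0.76 in Gc.

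**Figure D3:**
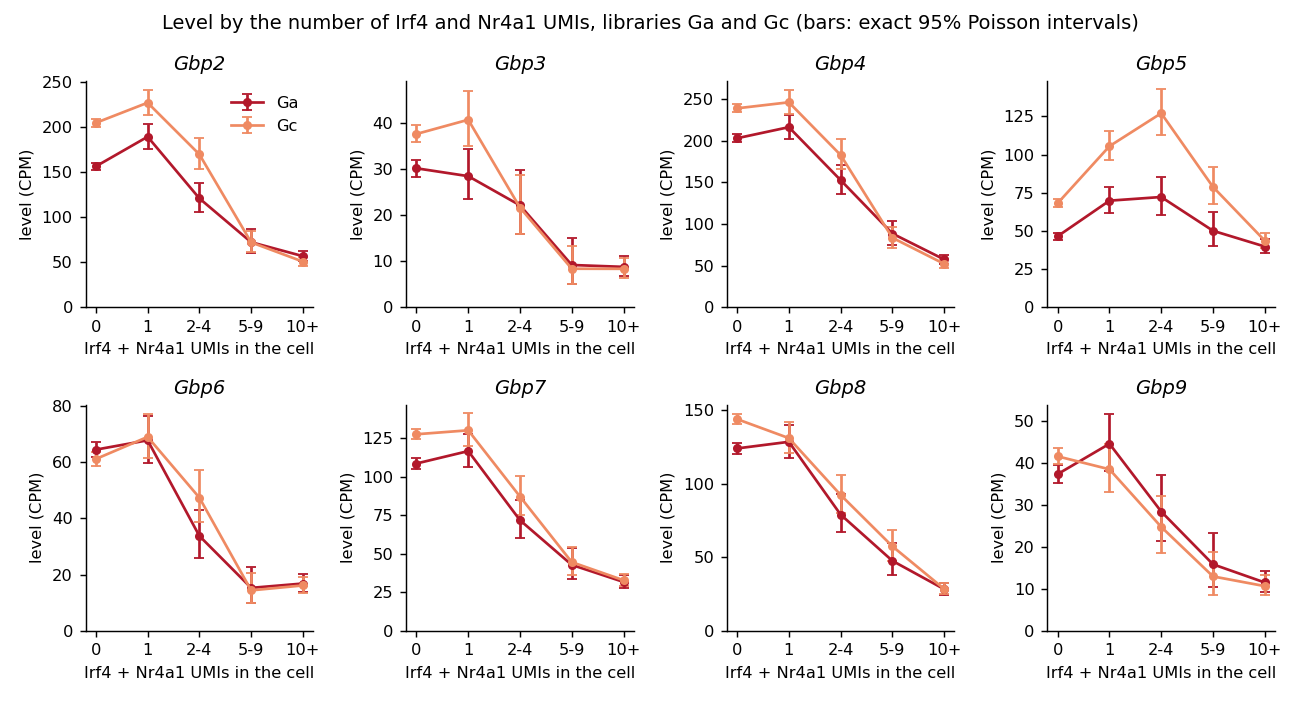
Level of each member in CPM, on a linear axis from 0, against the number of Irf4 plus Nr4a1 UMIs in the cell, for Ga and Gc with exact 95% Poisson bars. The 7 other members are lower from 2 to 4 UMIs onward; Gbp5 is highest at 2 to 4 UMIs, with 72.2 CPM in Ga and 127 in Gc.

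The cells without Irf4 or Nr4a1 UMIs were enough to separate the libraries. Their summed level was 770.5 CPM in Ga and 924 in Gc, against 248 in Gb, 233 in Ha and 258 in Hb, a span of 3.96-fold. All 8 members spanned at least 2-fold in these cells, against 10.9% of all genes, from 2.28-fold for Gbp9 to 7.96-fold for Gbp5. In cells that also lacked UMIs of 11 other early receptor-response genes, the log2 span of the sum was 1.98.

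Per cell, the division showed in the number of members as well. In Ga, 50.04% of thinned cells without Irf4 or Nr4a1 UMIs had at least 1 member (48.4 to 51.6%) and 29.4% of those with (26.9 to 31.9%). In Gc the shares were 56.1% without and 34.9% with. Unthinned, they were 86.5% and 65.8% in Ga and 88.9% and 69.0% in Gc. Gbp5 again stood apart: its thinned share was 5.73% without and 6.32% with in Ga, and 7.09% and 8.91% in Gc. The intervals overlapped in both libraries, in Gc at 6.38 to 7.85% without and 7.48 to 10.5% with. Where the cells with Irf4 or Nr4a1 UMIs had a Gbp5 UMI at all, they had more of them, 2.94 per positive cell against 2.10 in Ga and 3.48 against 2.46 in Gc, unthinned. This was not particular to Gbp5. Gbp2 had 4.35 against 3.33 in Ga and 4.02 against 3.66 in Gc, and only Gbp6 in Ga and Gbp9 in Gc went the other way. The cells with such UMIs were also deeper, with a median of 10198 UMIs against 8410 in Ga.

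**Figure D4:**
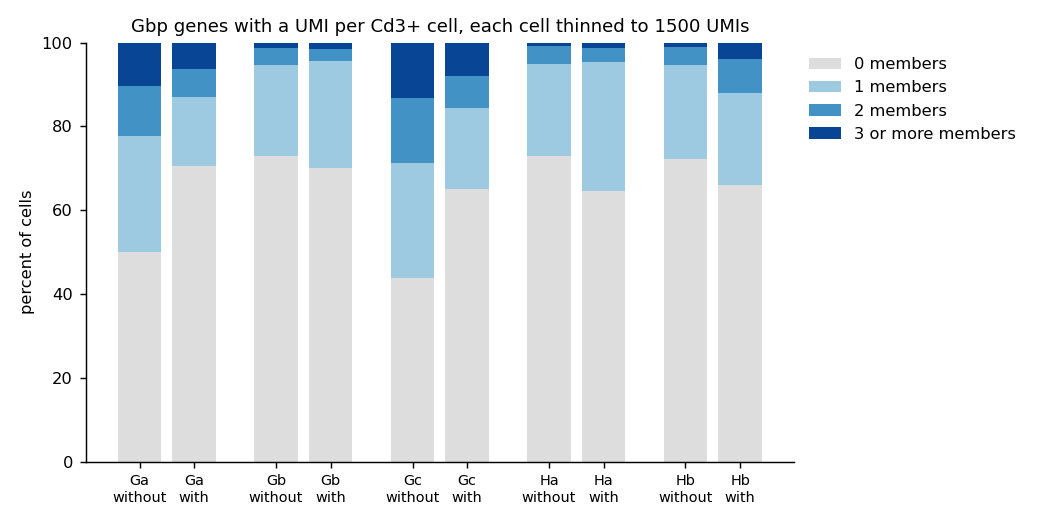
Percent of Cd3+ cells, each thinned to 1500 UMIs, with UMIs of 0, 1, 2 or at least 3 of the 8 members, by library and by presence of Irf4 or Nr4a1 UMIs before thinning. Among cells without such UMIs, 10.3% in Ga and 13.1% in Gc had at least 3 members, against 0.888 to 1.23% in Gb, Ha and Hb.

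The difference between libraries was present in each class of T cells that could be told by a UMI. In Cd4+ cells without Trdc or Foxp3 UMIs the summed level was 721 CPM in Ga and 932 in Gc, against 225 in Gb, 218 in Ha and 246 in Hb. Cells with Trdc and without Cd4 or Foxp3 UMIs had 646 CPM in Ga and 589 in Gc, against 280 in Gb, 276 in Ha and 278 in Hb. Foxp3+ cells, which include regulatory T cells, had 897 CPM in Ga and 839 in Gc, against 248 in Gb, 305 in Ha and 463 in Hb, over 52 to 133 cells per library. In Gb the 46 of 52 such cells without Irf4 or Nr4a1 UMIs were at 390 CPM (333 to 455), so the other 6 cells moved that value by more than 1.5-fold. In all 3 classes Ga and Gc were above Gb, Ha and Hb. Gc was higher than Ga in the Cd4+ class and Ga higher than Gc in the Trdc class, while in Foxp3+ cells the intervals overlapped (849 to 946 in Ga and 797 to 883 in Gc).

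The division by Irf4 and Nr4a1 differed in size between classes. In the Cd4+ class the summed level was 619 CPM with and 751 without in Ga, and 697 and 998 in Gc. Cells without Cd4, Trdc or Foxp3 UMIs showed 311 with and 920 without in Ga (616 and 867 cells), and 361 and 1046 in Gc. Cells with Trdc and without Cd4 or Foxp3 UMIs showed 471 CPM with (433 to 512) and 688 without (665 to 711) in Ga. In Gc they showed no difference beyond counting error, at 571 with (527 to 618) and 593 without (573 to 613). Gbp6 was higher with Irf4 or Nr4a1 UMIs in these Gc cells, at 76.9 CPM with and 51.2 without, and lower in those of Ga, at 43.0 and 91.0. The Cd4+ class without Trdc, taken with its Foxp3+ cells, gave a log2 ratio of -0.26 in Ga and -0.54 in Gc, against -0.72 and -0.80 over all Cd3+ cells. Gbp5 changed sign between these classes: in Ga it was 65.8 CPM with and 37.6 without in the Cd4+ class, and 40.1 with and 67.1 without in cells lacking all 3 markers. The same held in Gc, at 103 and 72.9 CPM in the Cd4+ class and at 60.5 and 79.8 in the others.

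Immunity-related GTPase genes, the second family of interferon-induced GTPases acting on pathogen vacuoles, had the pattern nearest to that of the members. Over the 10 sums of 5 libraries by the 2 classes of cells, 5 of these genes stood among the 10 with the highest Pearson correlation to the summed members, out of 11244 genes with at least 500 UMIs: Iigp1 (0.99), Gm4951 (0.98), Irgm1 (0.94), Irgm2 (0.92) and Igtp (0.91). The others were Irf1 (0.97), Kmt2a (0.94), Gvin1 (0.94), Gm4070 (0.93) and Tapbp (0.91). The 10 sums share libraries and depth, so these values describe likeness only. Among the members themselves, the correlation of each with the sum of the other 7 ran from 0.82 for Gbp5 to 0.97 for Gbp4.

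Iigp1 was at 269.5 CPM in Ga and 356 in Gc, against 77.2 in Gb, 59.8 in Ha and 73.6 in Hb. Of the 9 immunity-related GTPase genes tested, 7 spanned at least 2-fold, against 13.8% of all genes. All 9 were lower by at least 1.5-fold in cells with Irf4 or Nr4a1 UMIs in both Ga and Gc, also against 13.8% of all genes. Tgtp1 and Tgtp2 are near-identical copies, and their separate counts are uncertain.

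In the interferon gamma chain, 2 of the 8 genes described spanned at least 2-fold, namely Ifng and Irf1, against 13.8% of all genes. Irf1 was at 214 CPM in Ga and 249 in Gc, against 115 in Gb, 109 in Ha and 116 in Hb. It was lower with Irf4 or Nr4a1 UMIs, at log2 ratios of -0.74 in Ga and -0.66 in Gc. Ifng itself was scarce, with 220 UMIs over all Cd3+ cells and 0.551 to 1.62 CPM. Opposite to the members, it was higher with Irf4 or Nr4a1 UMIs, by log2 ratios of 1.69 in Ga (0.87 to 2.53) and 2.50 in Gc (1.86 to 3.17). Socs1, the feedback inhibitor of this pathway, was nearly level across the division, at 0.01 in Ga and -0.04 in Gc.

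Along the Irf4 and Nr4a1 steps of Ga and Gc, Ifngr1, Ifngr2 and Jak1 ended lower than they began, and only Jak2 ended higher. These genes were chosen for description after their values were seen. Ifngr1 in Ga was at 702 CPM at 0 UMIs, 638 at 1, 269 at 2 to 4, 149 at 5 to 9 and 69.4 at 10 or more. Ifngr2 in Ga was at 86.2 CPM at 0 UMIs and 40.8 at 10 or more, and Jak1 at 939 and 344. Jak2 in Ga was at 112 CPM at 0 UMIs and 462 at 10 or more. The high-affinity interleukin-2 receptor gene Il2ra was at 23.8 CPM at 0 UMIs and 1168 at 10 or more.

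Other interferon gamma targets differed in direction. Of 13 tested, 4 spanned at least 2-fold, against 13.8% of all genes. By at least 1.5-fold, 5 were lower and 4 higher with Irf4 or Nr4a1 UMIs in both Ga and Gc. Of all genes 13.8% were lower in both, and 19.8% were higher in Ga and 20.6% in Gc. The share of all genes higher in both was not computed. Cd274, which encodes the PD-1 ligand PD-L1, was also high in Ga and Gc, at 135 CPM in Ga and 158 in Gc, against 32.3 in Gb, 32.2 in Ha and 30.9 in Hb. Its log2 ratio with over without was 1.11 in Ga and 0.82 in Gc. The chemokine gene Cxcl10 was at 11.7 CPM in Ga and 12.2 in Gc, against 3.81 in Gb, 1.18 in Ha and 2.12 in Hb, with ratios of 1.24 in Ga and 0.47 in Gc. Ciita, the master regulator of MHC class II genes, was scarce, with 396 UMIs over all Cd3+ cells. It was higher with Irf4 or Nr4a1 UMIs, by log2 ratios of 2.99 in Ga and 2.06 in Gc. Its levels were 4.92 CPM with and 0.619 without in Ga, and 5.84 and 1.40 in Gc. Cxcl9, with only 235 UMIs over all Cd3+ cells, was at 4.75 CPM in Ga and at most 0.0589 CPM in the other libraries. In Ga it lay almost wholly in cells with Irf4 or Nr4a1 UMIs, at 15.7 CPM with and 0.0295 without. The number of cells that held it was not counted.

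Genes of the type I interferon response shared the lower level with Irf4 or Nr4a1 UMIs, with narrower spans than the members. Of 15 tested, 11 were lower by at least 1.5-fold in both libraries, against 13.8% of all genes. None was higher by 1.5-fold, as 19.8% of all genes were in Ga and 20.6% in Gc. A span of at least 2-fold was reached by 4 (Ifi44, Rtp4, Oasl2 and Rsad2), against 13.8% of all genes. Ga and Gc were the highest pair for 10 of the 15, against 26.3% of all genes. The median log2 span was 0.489 for these genes and 1.52 for the immunity-related GTPases, against 0.385 for all genes. In cells without Irf4 or Nr4a1 UMIs these medians were 0.732 and 1.74, against 0.292 for all genes.

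Inflammasome genes, which act downstream of GBPs in other cells, mostly differed little between libraries. Of 6 tested, only Casp4 spanned at least 2-fold, a share near the 13.8% of all genes. It was at 30.2 CPM in Ga and 31.2 in Gc, against 14.9 in Gb, 13.4 in Ha and 10.99 in Hb. Casp4, the caspase that senses bacterial lipopolysaccharide, was higher with Irf4 or Nr4a1 UMIs, by log2 ratios of 2.09 in Ga and 1.80 in Gc. Nlrp3, a sensor with only 156 UMIs, was higher too, by 4.10 and 1.101, and the adaptor gene Pycard was lower, at -0.73 and -0.75. The other 3 did not pass 1.5-fold in the same direction in both libraries.

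As a check of the division, all 11 other early receptor-response genes were higher with Irf4 or Nr4a1 UMIs in Ga and Gc. Nr4a3 had log2 ratios of 6.32 and 6.52 and Egr2 of 5.82 and 5.85. None of 7 housekeeping genes spanned 2-fold between libraries, and their median log2 span was 0.144. Across the division they were not level: all 7 were higher with Irf4 or Nr4a1 UMIs in both Ga and Gc. Their log2 ratios ran from 0.04 for Eef1a1 to 0.75 for Actb in Ga, and from 0.05 to 0.86 for the same genes in Gc. The medians were 0.34 in Ga and 0.27 in Gc.

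**Figure D5:**
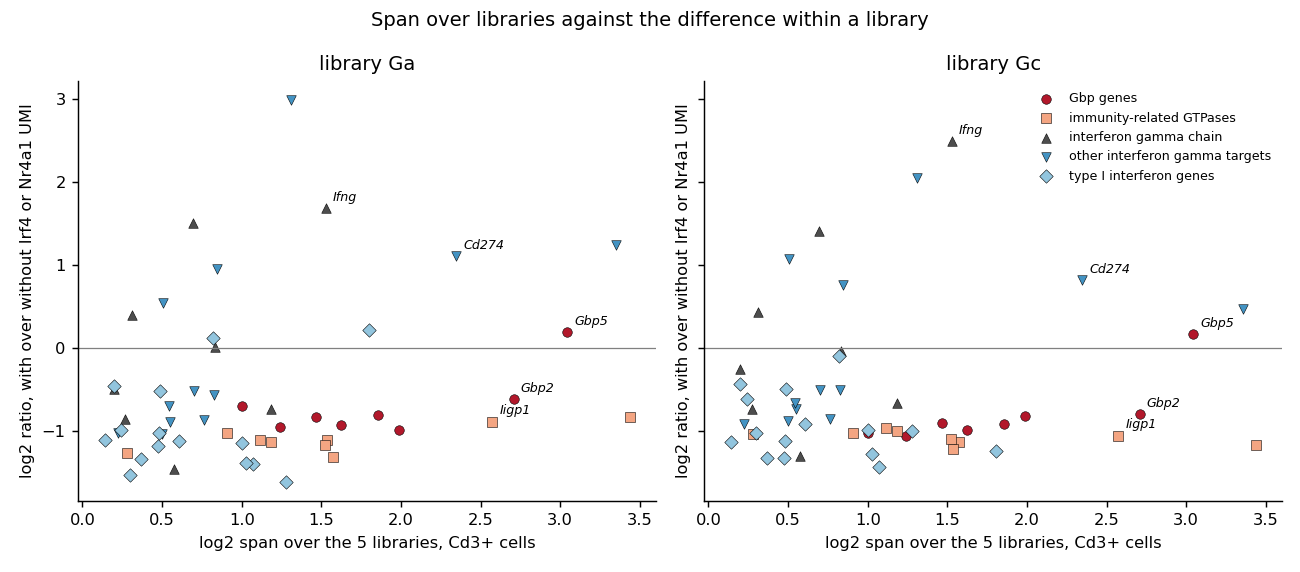
Log2 span over the 5 libraries (x axis) against the log2 ratio of cells with to cells without Irf4 or Nr4a1 UMIs (y axis) for Ga and Gc, 1 point per gene of 5 gene lists; Cxcl9 is left out. The 7 other GBP genes and the immunity-related GTPases lie below 0, Gbp5 lies just above it with a log2 span of 3.05, and Cd274 lies above 0 in both panels.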

How the data were processed

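RNA of single cells was measured with the 10x Genomics 5′ kit v2 in 5 samples. The authors deposited UMI counts per gene and barcode, aggregated into 2 matrices; Cell Ranger 6.0.0 and mm10 are named per the submitters' processing notes, and cellranger 7.1.0 per the file headers. No source used here says whether aggregation equalised depth.

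Counts were read as deposited with Python 3.11.15, numpy 2.4.6, scipy 1.17.1 and pandas 2.3.3. Barcodes were Cd3+ by the rule given above; no doublet caller was run. UMIs were summed per library and divided by the summed total to give CPM, with Poisson intervals. Ratios carry exact binomial intervals, shares Clopper-Pearson intervals after thinning to 1500 UMIs. Spans add 0.5 UMI to each count. Cells are not replicates, so no p-value was computed. Total Cd3+ counts ran from 25724994 to 59328578 UMIs per library. The interval and thinning code was tested on simulated data. Barcodes of other cells carried at least 3 UMIs of B cell or fibroblast, 10 of myeloid or 50 of erythroid markers, limits chosen after seeing the data.

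The named genes are the 8 members, the 10 genes most correlated with their sum in log2(CPM + 1), and up to 4 genes per pathway list with the largest span. One gene of the interferon gamma chain list is not reported here. The members and lists were chosen with earlier results of these data known. Alternatives changed the cell filter, the Cd3 rule, the class of T cells, the depth and the definition of cells with Irf4 or Nr4a1 UMIs.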

Additional observations from a re-analysis of the deposited data

How the results depend on the processing

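The main limit is that the libraries have no group and no replicate. The summed log2 span of 1.81 ranged from 1.55 to 1.81 when 1 library was left out. It was 2.07 in Cd4+ cells without Trdc UMIs, 1.87 without the top 5% of cells by UMIs, 1.89 as a mean of per-cell CPM, 1.85 after thinning to 1500 UMIs and 1.98 in cells without any early receptor-response UMI.

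The summed log2 ratio with over without Irf4 or Nr4a1 UMIs was below 0 in all 14 settings in both Ga and Gc. For Ga and Gc in turn, it was -0.68 and -0.73 with 2 of the 3 Cd3 genes required, -0.26 and -0.54 in Cd4+ cells without Trdc, -0.67 and -0.64 as a mean of per-cell CPM, and -0.63 and -0.60 with Nr4a3, Egr2 or Il2ra as the dividing genes. It was -1.14 and -1.19 when cells were thinned to 1500 UMIs and then divided anew, and -1.27 and -1.37 with at least 2 UMIs required. Settings added after seeing the data gave -0.80 and -0.76 without barcodes of other cells, -0.64 and -0.76 at 8000 to 12000 UMIs, and -1.62 and -1.93 for at least 10 UMIs against none. In Gc it was -0.76 without the top 5% by UMIs and -0.74 against cells without any early receptor-response UMI.

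The ratio in Gb changed sign to 0.70 in Cd4+ cells without Trdc, 0.53 without the top 5%, 0.33 as a per-cell mean, 0.39 with Nr4a3, Egr2 or Il2ra, 0.32 without barcodes of other cells and 0.52 at 8000 to 12000 UMIs. The Gbp5 ratio changed sign in Ga and Gc to -0.15 and -0.067 after thinning, -0.055 and -0.14 with at least 2 UMIs and -0.23 and -0.65 for at least 10 against none, and in Ga to -0.024 without barcodes of other cells. The cause was not tested. No paired analysis was possible because each group has 1 sample and no library could be tied to a sample.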
